A study of Mus musculus with 18 samples.

Results

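The 5 genes described here encode the intermediate filament proteins of peripheral neurons: Nefl, Nefm and Nefh, the light, medium and heavy neurofilament subunits, Prph, which encodes peripherin, and Ina, which encodes alpha-internexin. They were chosen by symbol, through a rule that uses no measured value but with earlier results of these data known, and all 5 were among the 17198 genes of the deposited table. RNA came from mouse sensory neurons of the dorsal root ganglia (DRG), which lie beside the spinal cord, grown in culture and collected after 12, 24 or 48 h. Wild-type (WT) cultures were compared with cultures heterozygous for the tm1a allele, Dynlrb1(tm1a/+), called HET here. The product of Dynlrb1 is a light chain of dynein, which moves cargo along microtubules toward the cell body. Each of the 6 groups held 3 cultures, 18 in all, numbered 1, 2 and 3 at 48 h and 1, 2 and 5 at both earlier times. The submitters describe the cultures as biological repeats but do not tie them to animals, so p-values measure the spread between these cultures. Strain, age, sex and any treatment shared by all groups are not given in the sources used here. The tm1a label names an inherited allele, and no Cre or cell type promoter is named that would limit it to neurons.

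Neurofilaments are long polymers that fill large axons and set their calibre. The light subunit forms the core with the other subunits, and the medium and heavy subunits carry long tails that are heavily phosphorylated and space the filaments. Peripherin is typical of peripheral neurons, above all small-diameter sensory neurons, and can join neurofilaments. Alpha-internexin is found mainly in central and developing neurons. In the DRG the heavy subunit is a customary marker of large-diameter, myelinated neurons. Neurofilament proteins travel along axons on kinesin and dynein motors.

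Dynlrb1 was lower in every HET than in every WT culture. Averaged over the times, its log2 fold change was -0.83 (SE 0.071, adjusted p 2.85e-05 by limma), or 56.3% of WT. Within a group, any 2 cultures correlated at 0.978 to 0.992 (Pearson's r over genes), and no pair held identical values. Of the defining markers of DRG neurons, Tubb3 lay between 789.4 and 1533 FPKM and Avil between 423.2 and 552.0 FPKM in all 18 cultures. Isl1, a transcription factor of these neurons, was lower, at 22.2 to 93.9 FPKM. Other cells were also represented, with Sox10 of glia at 7.73 to 24.4, Col1a1 of fibroblasts at 1.68 to 30.4, Pecam1 of endothelium at 10.8 to 27.6 and Ptprc of leukocytes at 0.303 to 1.77 FPKM. By culture, the 8 glial markers used below summed to 527.0 to 1208 FPKM and the 10 pan-neuronal markers to 4252 to 5393 FPKM. Sequencing depth is unknown, so precision rests on the spread between cultures.

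All 5 genes were placed on the mouse build GRCm38, the same assembly as the mm10 build that the submitters name. Nefl and Nefm lie together on chromosome 14, Nefl at 68083863 to 68089095 on the plus strand and Nefm at 68082590 to 68124846 on the minus strand. The Nefl span sits inside that of Nefm because 1 of the 2 annotated Nefm transcripts runs through it on the opposite strand. The exons of the 2 genes share 1108 bases, out of 3380 exon bases of Nefl and 5782 of Nefm. The other Nefm transcript shares 0 exon bases with Nefl and begins 30188 bases beyond it. Whether reads were counted by strand is not given in the sources used here, so reads from the shared bases cannot be assigned with certainty. Nefh is on chromosome 11 at 4938754 to 4948064 on the minus strand, Ina on chromosome 19 at 47014698 to 47025327 on the plus strand and Prph on chromosome 15 at 99055174 to 99058978 on the plus strand.

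Set against all genes by length-corrected level, 4 of the 5 were among the most abundant transcripts of these cultures and the fifth was not. FPKM, the unit used for this comparison, corrects a count for transcript length and library size. Over the 18 cultures Nefl had a mean of 1496 FPKM (SD 284.0) and ranked 6 of 17198 genes, never below 10 in a single culture. Prph followed at 1056 FPKM (SD 185.3), rank 11. Nefm had a mean of 425.7 FPKM (SD 104.2), rank 67, and Nefh 383.1 FPKM (SD 109.6), rank 76. Ina was far lower, at 9.92 FPKM (SD 2.2) and rank 6656. The order of Nefl and Prph depends on the length used. The deposited FPKM values imply 2001 bases for Nefl and 1769 for Prph, whereas the longest annotated transcripts have 3380 and 1863 bases. With the latter lengths Nefl had a mean of 885.9 and Prph of 1003 per-length units, and Prph exceeded Nefl in 12 of 18 cultures in place of 1 of 18. This alternative length was tried after the values had been seen.

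**Figure D1:**
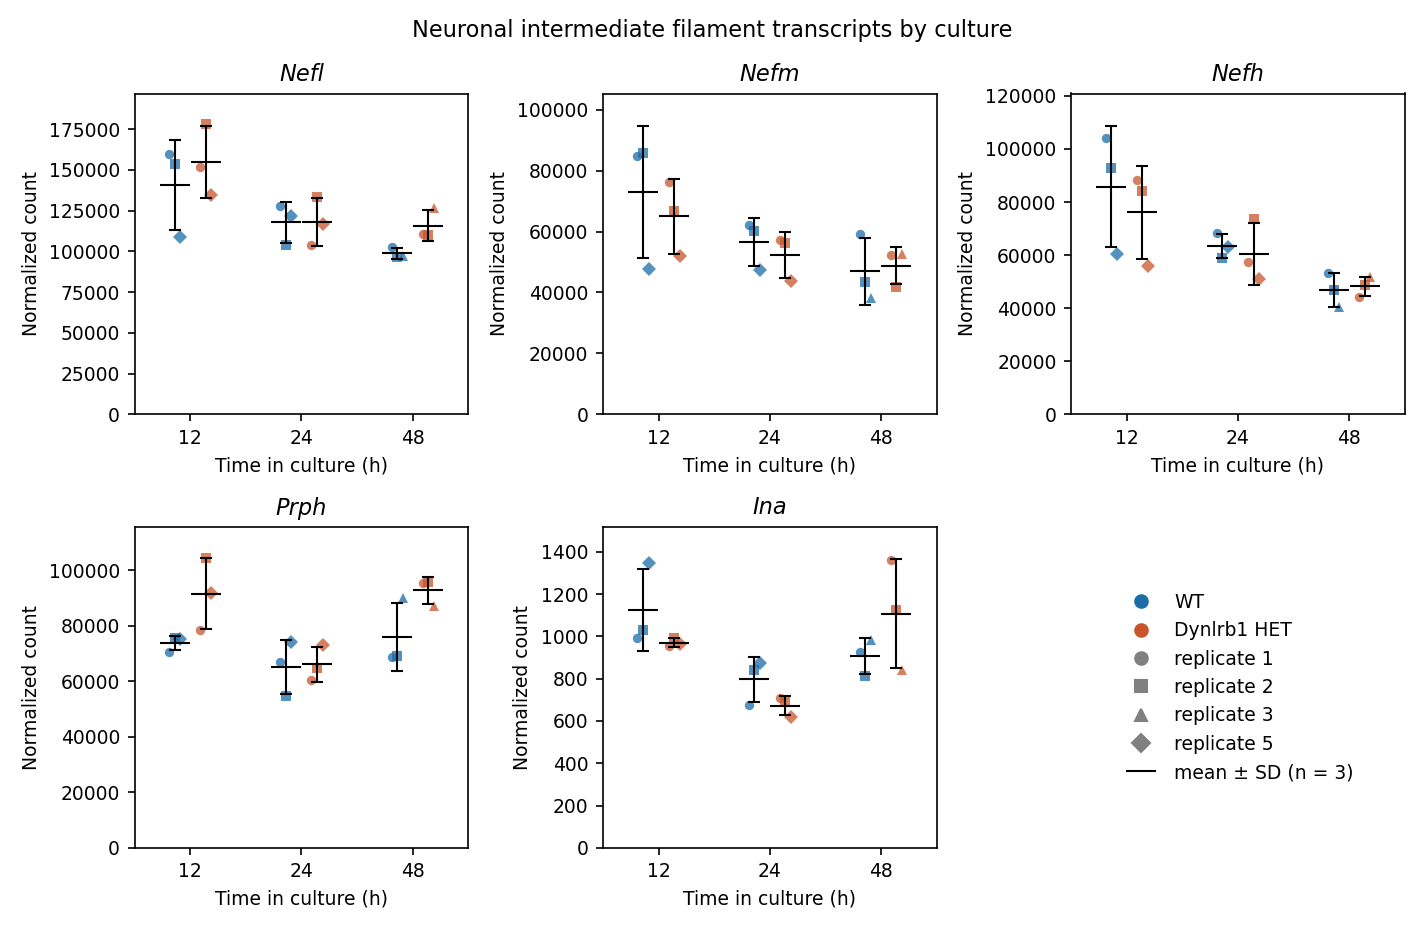
Normalized counts of the 5 genes against time in culture, with 1 point per culture (shape gives the replicate number, colour the genotype) and bars for the mean ± SD of 3 cultures; each panel has its own scale starting at 0. Nefl, Nefm and Nefh step down from 12 to 48 h, while Prph and Ina are lowest at 24 h.

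The 3 neurofilament subunits fell between 12 and 48 h in WT. On the log2 scale the value was largest for the heavy subunit, but the 95% intervals overlapped and differences between subunits were not tested. Values in the next paragraphs are the authors' normalized counts, which are comparable between cultures but not between genes of different length. A gene was called when its limma adjusted p was under 0.05. Of the 5 genes, 3 were called, all lower, while 47.1% of all genes were called in this comparison, 17.1% lower. The median gene rose by 0.11 on the log2 scale in the normalized counts and by 0.01 in a second, plain set of deposited columns, so that changes relative to the median gene are given too. The share of all called genes that rose was 63.6% in the first set and 52.6% in the second. In such bulk samples, fewer cells of a type and less RNA per cell cannot be told apart.

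Nefh, the heavy subunit, stood at 104136, 92871 and 60282 normalized counts in the WT cultures at 12 h, 68307, 58979 and 63125 at 24 h, and 53345, 46928 and 40301 at 48 h. Every 48 h culture was below every 12 h culture, as for 20.7% of all genes. The log2 fold change was -0.84 (SE 0.20, 95% interval -1.26 to -0.43, adjusted p 0.00232 by limma), leaving 55.7% of the 12 h level. Relative to the median gene it was -0.96. The call held with any 1 of the 6 cultures left out.

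Nefl, the light subunit, stood at 159796, 153445 and 108787 normalized counts at 12 h, 128033, 103832 and 121684 at 24 h, and 102506, 96427 and 97426 at 48 h in WT. The 48 h group lay wholly below the 12 h group, as for 20.7% of all genes, and the 48 h cultures lay close together. The log2 fold change was -0.49 (SE 0.14, adjusted p 0.0102 by limma), or -0.60 relative to the median gene. Without WT 12 h replicate 1 the limma adjusted p was 0.054. For Nefm, the medium subunit, the WT cultures held 84929, 85858 and 47846 normalized counts at 12 h, 62212, 60032 and 47419 at 24 h, and 59244, 43438 and 38050 at 48 h. Replicate 5 at 12 h was far below the other two, and the 12 and 48 h groups overlapped. The log2 fold change of Nefm was -0.61 (SE 0.22, adjusted p 0.028 by limma). This call rested on single cultures: the limma adjusted p was 0.116 without WT 12 h replicate 1, 0.125 without WT 12 h replicate 2, 0.0857 without WT 48 h replicate 2 and 0.115 without WT 48 h replicate 3.

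In HET cultures the 3 subunits also had lower means at 48 than at 12 h, and 1 of the 5 genes was called, against 14.2% of all genes and 3.62% called lower. Nefh held 88388, 83988 and 55815 normalized counts at 12 h, 57360, 73462 and 50860 at 24 h, and 44389, 48631 and 51618 at 48 h. All 48 h values were below all 12 h values, as for 8.12% of all genes, and the log2 fold change was -0.63 (SE 0.20, adjusted p 0.0419 by limma). The adjusted p for Nefh was 0.14 without HET 12 h replicate 1, 0.152 without HET 12 h replicate 2, 0.16 without HET 48 h replicate 1 and 0.125 without HET 48 h replicate 2.

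Nefl in HET stood at 151458, 178110 and 134809 normalized counts at 12 h, 103684, 133103 and 116878 at 24 h, and 110928, 109749 and 126673 at 48 h. The 48 h group lay wholly below the 12 h group, as for 8.12% of all genes. The log2 fold change of -0.41 (SE 0.14) had a limma adjusted p of 0.061. It was 0.032 in the plain columns, 0.0489 without HET 12 h replicate 5 and 0.0327 without HET 48 h replicate 3. Nefm in HET had 76360, 66581 and 51987 normalized counts at 12 h, 57089, 56095 and 43690 at 24 h, and 52268, 41677 and 52543 at 48 h. These groups overlapped slightly and the log2 fold change was -0.40 (SE 0.22, adjusted p 0.21 by limma). In the authors' deposited table, Nefl had a log2 fold change of -0.42 and an FDR of 0.0374 in this HET comparison, and Nefh -0.66 and 0.00828. That table thus holds 2 of the 5 genes below an FDR of 0.05, where 4.22% of all genes are so called as lower.

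Whether the change from 12 to 48 h differed between genotypes was tested directly, and 0 of 5 genes were called, as were 0% of all genes (limma), with 0 of the 5 under an unadjusted p of 0.05. The HET change minus the WT change was 0.21 on the log2 scale for Nefh (95% interval -0.37 to 0.80), 0.21 for Nefm (-0.44 to 0.85) and 0.08 for Nefl (-0.35 to 0.51). Intervals of this width leave room for differences about as large as the changes themselves.

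From 12 to 24 h all 3 subunits had negative log2 fold changes in both genotypes, and none was called by limma. They ran from -0.24 for Nefl to -0.40 for Nefh in WT and from -0.31 for Nefm to -0.39 for Nefl in HET. For Nefl in HET the limma adjusted p was 0.0662, and 0.0353 in the plain columns, and the authors' deposited FDR was 0.0473. Its 24 h group lay wholly below its 12 h group in HET, as for 13% of all genes. In WT 0 of 5 genes were called by limma from 12 to 24 h, where 3.62% of all genes were, and 1 of the 5, Ina, had an unadjusted p under 0.05, as did 21.4% of all genes. From 24 to 48 h in WT 0 of 5 were called by limma against 27.7% of all genes, with 1 of the 5 under an unadjusted p of 0.05, as were 40.5% of all genes. That gene was Nefh, with a log2 fold change of -0.44 (SE 0.20, adjusted p 0.0991 by limma).

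Prph and Ina had their lowest group means at 24 h in both genotypes, though differences in course between genes were not tested. From 24 to 48 h in WT the log2 fold changes of Prph and Ina were 0.22 and 0.19 (limma adjusted p 0.223 and 0.378). In the HET cultures both fell from 12 to 24 h, so that 2 of 5 genes were called, both lower, against 18.9% of all genes and 5.76% called lower. Promoter sequences were at hand for 2 of the 5 genes, which are Prph and Ina, and are shown to give the sequence context of these 2 genes. They are the 250 bases before each gene's start in RefSeq, on GRCm38.p6, plus strand, 5′ to 3′. Capitals mark matches to the TATA box, searched with the letters TATAAA, and to the GC box, searched with the letters GGGCGG. Both strands were read, and all GC boxes found here lie on the minus strand. The CCAAT box and the cAMP response element, whose letters are TGACGTCA, were also searched for on both strands.
Prph, chr15:99054924-99055173: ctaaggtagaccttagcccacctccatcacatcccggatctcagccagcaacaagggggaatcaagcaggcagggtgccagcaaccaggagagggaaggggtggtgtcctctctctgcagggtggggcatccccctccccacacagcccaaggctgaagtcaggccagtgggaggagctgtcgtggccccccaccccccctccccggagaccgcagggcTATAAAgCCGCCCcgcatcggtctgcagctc
Ina, chr19:47014431-47014680: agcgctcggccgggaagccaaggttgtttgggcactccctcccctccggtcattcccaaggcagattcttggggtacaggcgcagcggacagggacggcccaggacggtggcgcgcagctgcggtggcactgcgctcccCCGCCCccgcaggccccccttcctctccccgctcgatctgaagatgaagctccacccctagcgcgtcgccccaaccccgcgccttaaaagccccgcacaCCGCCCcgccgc

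The Prph window holds a TATA box beginning 31 bases before the start and 1 GC box beginning 24 bases before it, without overlap. The Ina window holds GC boxes beginning 111 and 12 bases before the start and no TATA box. Neither holds a CCAAT box or a cAMP response element. Of 32851 windows of the same length, 12.4% hold a TATA box, 32.7% a GC box, 33.8% a CCAAT box and 1.55% a cAMP response element. The G and C content was 65.2% for Prph and 70.8% for Ina, where the median window has 52.4%. These are matches of letters and no measure of binding.

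Prph, the peripherin gene, was at 78548, 104417 and 91752 normalized counts in HET at 12 h, 60401, 64715 and 73052 at 24 h, and 95317, 95849 and 86991 at 48 h. All 24 h cultures were below all 12 h cultures, as for 13% of all genes, and below all 48 h cultures, as for 10.2%. The log2 fold change from 12 to 24 h was -0.47 (SE 0.13, adjusted p 0.021 by limma), with adjusted p of 0.121 without HET 12 h replicate 2 and 0.0831 without HET 24 h replicate 1. From 24 to 48 h it was 0.49 (SE 0.13), with a limma adjusted p of 0.0539 that became 0.0205 without HET 48 h replicate 3. Between 12 and 48 h the Prph log2 fold change was 0.03 in HET and 0.03 in WT, and -0.07 and -0.08 in the plain columns, with neither called. In WT, Prph was at 70708, 75447 and 75203 normalized counts at 12 h, 66862, 54806 and 74133 at 24 h, and 68783, 69012 and 90036 at 48 h. These WT groups overlapped from 12 to 24 h, and the log2 fold change was -0.19 (SE 0.13, adjusted p 0.439 by limma).

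Ina, the alpha-internexin gene, was at 954.6, 994.5 and 963.2 normalized counts in HET at 12 h, 709.4, 688.3 and 620.5 at 24 h, and 1360, 1123 and 841.2 at 48 h. The 24 h cultures were below all at 12 h, as for 13% of all genes, and below all at 48 h, as for 10.2%. The 48 h cultures were widely spread. The log2 fold change was -0.53 from 12 to 24 h (SE 0.16, adjusted p 0.0269 by limma) and 0.69 from 24 to 48 h (SE 0.16, adjusted p 0.0338 by limma). In that later interval Ina was the 1 gene of 5 called, where 2.49% of all genes were called and 1.42% higher. The first call was lost without any 1 of HET 12 h replicates 1 (0.0539), 2 (0.0966) and 5 (0.0556) or of HET 24 h replicates 1 (0.0514) and 5 (0.0996). The later call was lost without any 1 of HET 24 h replicates 1 (0.0987), 2 (0.0712) and 5 (0.0949) or of HET 48 h replicates 1 (0.266) and 2 (0.126), each number being a limma adjusted p. Nefl would join the calls from 12 to 24 h in HET without HET 12 h replicate 5 (0.0459) or HET 24 h replicate 2 (0.0456).

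In WT, Ina was at 994.2, 1031 and 1349 normalized counts at 12 h, 675.6, 841.5 and 873.1 at 24 h, and 925.1, 813.9 and 982.4 at 48 h. The 24 h group lay wholly below the 12 h group, as for 8.94% of all genes, with a log2 fold change of -0.49 (SE 0.16, adjusted p 0.0847 by limma). At 48 h all WT cultures were still below all at 12 h in Ina, as for 20.7% of all genes, though 982.4 lay close to 994.2. The log2 fold change was -0.30 (SE 0.16, adjusted p 0.127 by limma). The genotype difference in the 12 to 48 h change of Ina was 0.46 (95% interval -0.01 to 0.93, adjusted p 0.556 by limma). A genotype difference in the change from 12 to 24 h was not tested.

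**Figure D2:**
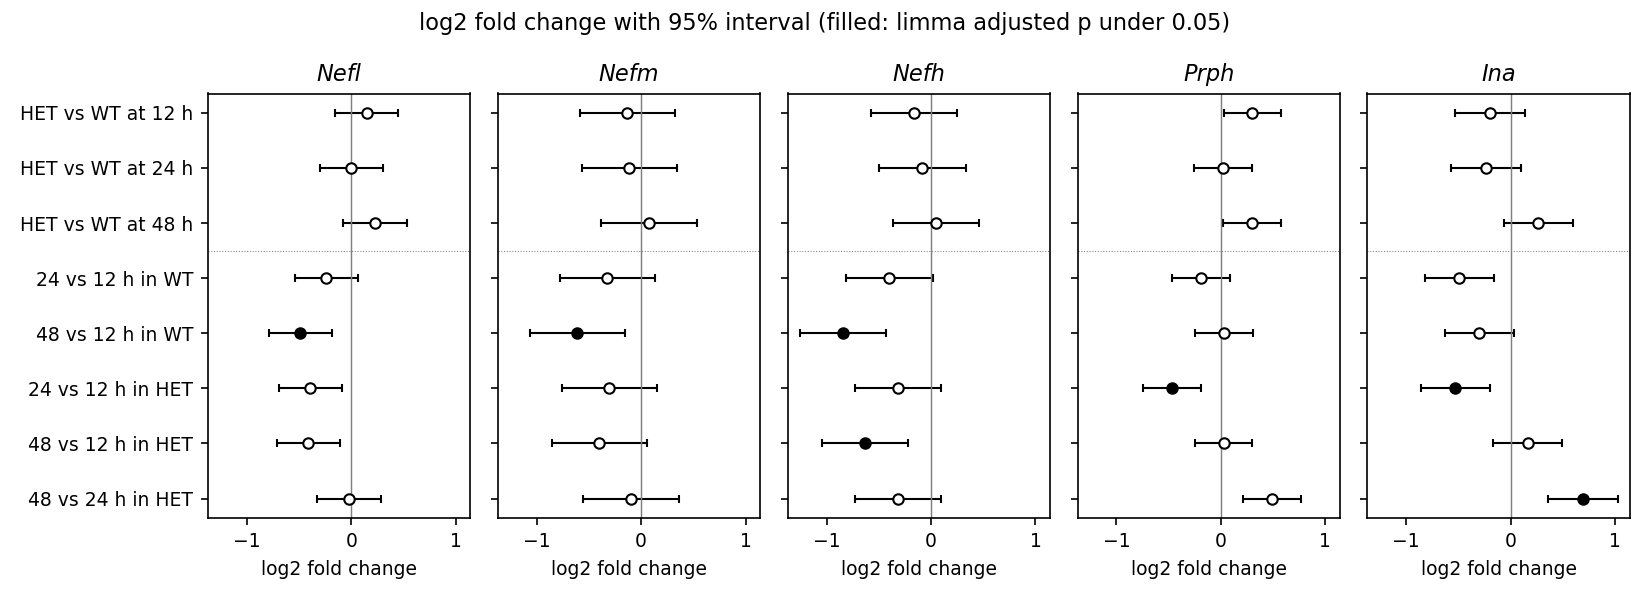
Log2 fold change (points) with its 95% interval from limma (bars) for each gene in 8 comparisons, the first 3 between genotypes and the rest between times; filled points have a limma adjusted p under 0.05. The filled points are Nefl, Nefm and Nefh for 48 against 12 h in WT, Nefh for the same times in HET, Prph and Ina for 24 against 12 h in HET, and Ina for 48 against 24 h in HET.

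No member was called between genotypes at any time. By limma, 0 of 5 were called at 12 h, where 0.00581% of all genes were, 0 of 5 at 24 h (0.00581%), 0 of 5 at 48 h (0%) and 0 of 5 averaged over the times (0.0174%). At an unadjusted p under 0.05 the counts were 1, 0, 1 and 1 of 5, where 8.41%, 1.15%, 22% and 13.5% of all genes were under it. In each case the gene was Prph, and 1 of 5 is near the share of all genes at 48 h. At 48 h, same-numbered cultures of the 2 genotypes deviated together. Fitting replicate number as a blocking term called 10.4% of all genes there and still 0 of the 5, with limma adjusted p of 0.142 for Prph. The block gave each number an effect shared over all times. Same-numbered cultures of the 2 genotypes correlated at only 0.032 to 0.188 at 12 h and -0.207 to 0.258 at 24 h. Block calls at 48 h, here and below, thus lean on a pairing not seen at every time.

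On the log2 scale, HET exceeded WT in Prph by 0.30 at 12 h (95% interval 0.03 to 0.58), by 0.02 at 24 h (-0.25 to 0.30) and by 0.30 at 48 h (0.02 to 0.57). At 12 h all 3 HET cultures, from 78548 to 104417 normalized counts, exceeded all 3 WT cultures, from 70708 to 75447, as for 7.07% of all genes. At 48 h the highest WT culture, at 90036, exceeded the lowest HET culture, at 86991. Averaged over the times the difference was 0.21 (SE 0.076, 95% interval 0.05 to 0.37, adjusted p 0.313 by limma), or 116% of WT, higher in HET at 3 of 3 times. A two-sided exact permutation test of genotype within each time, over 8000 arrangements, gave p 0.026 for Prph, the smallest of 5 such tests and unadjusted for them.

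Markers of small-diameter sensory neurons, in which peripherin is abundant, also had positive log2 fold changes in HET against WT at 12 and 48 h. Of 10 such markers, the number with a positive log2 fold change was 10, 5 and 10 at the successive times. Their medians were 0.38, 0.00 and 0.71, where those of all genes were -0.02, 0.01 and -0.03. By limma 0 of the 10 were called at any of these times. Unadjusted p were under 0.05 for 1, 0 and 6 of them, where 8.41%, 1.15% and 22% of all genes were under it. The count at 12 h is near the share of all genes. With the replicate block, 6 of the 10 were called at 48 h, all higher, where 10.4% of all genes were called. These block calls depend on a pairing at 48 h read from these same values and on numbers shared over all times. Their summed level at 48 h was 791.6 to 1063 FPKM in WT and 991.3 to 1784 FPKM in HET. Their part in the Prph values was not tested.

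Between genotypes the other 4 genes had differences of either sign, none called. Ina was at -0.20 on the log2 scale at 12 h, -0.24 at 24 h and 0.26 at 48 h. Nefm was at -0.13, -0.11 and 0.08 and Nefh at -0.16, -0.08 and 0.05 at these times. Nefl was 0.15 higher in HET at 12 h, 0.00 at 24 h and 0.23 higher at 48 h on the log2 scale. At 48 h its 3 HET cultures, from 109749 to 126673 normalized counts, lay above the 3 WT cultures, from 96427 to 102506, as for 9.57% of all genes, with a limma adjusted p of 0.368. The averaged differences were 0.12 for Nefl (95% interval -0.05 to 0.30), -0.06 for Nefm (-0.32 to 0.21), -0.07 for Nefh (-0.31 to 0.17) and -0.06 for Ina (-0.25 to 0.13). Exact permutation p were 0.169, 0.667, 0.574 and 0.605 in that order.

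Prph had a larger mean share of the filament transcripts at 48 than at 12 h in both genotypes, and Nefh a smaller one. The shares below are each gene's part of the summed FPKM of the 5, given as a description with no test. Prph made up 27.2% ± 5.42 (SD, n = 3) at 12 h, 28.4% ± 2.59 at 24 h and 36.1% ± 5.13 at 48 h in WT. In HET it made up 30.8% ± 3.97, 29.3% ± 3.23 and 38.0% ± 3.01. Single cultures overlapped in WT, from 23.2% to 33.4% at 12 h and from 31.8% to 41.8% at 48 h, and met at 34.6% in HET. Nefh went from 13.6% ± 1.63 to 9.88% ± 1.41 between 12 and 48 h in WT and from 11.2% ± 1.99 to 8.75% ± 0.562 in HET. The Nefh ranges did not overlap, with 11.9% the lowest at 12 h and 10.9% the highest at 48 h in WT and 9.34% against 9.1% in HET. Nefl ran from 42.7% to 46.3% at 12 h and from 39.9% to 42.7% at 48 h in WT. At these times Nefm took 14.2% and 12.2%, and Ina 0.331% and 0.337%. For every Nefl transcript by FPKM there were 0.613 of Prph at 12 h and 0.871 at 48 h in WT, and 0.673 and 0.912 in HET. Single cultures ran from 0.501 to 0.782 at 12 h and 0.759 to 1.05 at 48 h in WT, which overlap, and from 0.587 to 0.77 and 0.777 to 0.988 in HET, which do not. These levels depend on the lengths used: with the longest annotated transcripts, a setting added once the values were seen, the ratio in WT was 0.983 at 12 h and 1.40 at 48 h, and in HET it ran from 0.941 to 1.23 and from 1.25 to 1.58. With those lengths the Prph share was 32.9% and 43.0% in WT and 37.4% and 45.4% in HET, and the Nefh share in WT was 17.3% and 12.4%, the same directions.

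**Figure D3:**
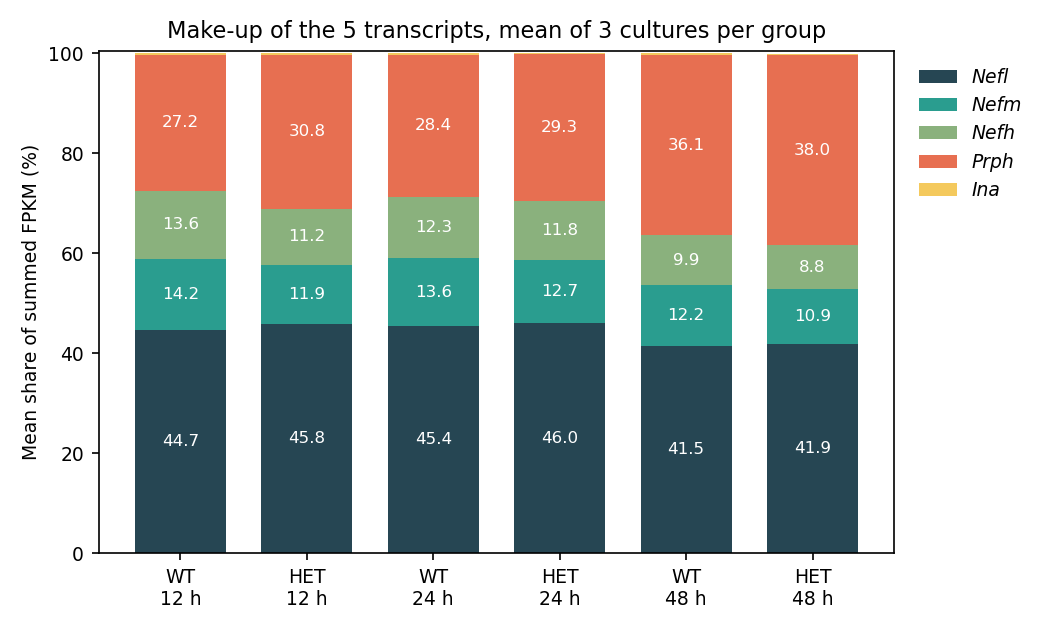
Stacked bars of each gene's mean share of the summed FPKM of the 5 genes, in percent, for the 6 groups of genotype and time (3 cultures each), with the lengths behind the deposited values. The Prph share grows from 27.2% to 36.1% in WT and from 30.8% to 38.0% in HET between 12 and 48 h, while the Nefh share shrinks from 13.6% to 9.88% and from 11.2% to 8.75%; Ina is too low to see.

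Several markers of sensory neurons, of large and of small diameter, were called lower at 48 than at 12 h, as Nefh was. Of all genes 30% were called higher and 17.1% lower in WT, and 14.2% were called in HET, 3.62% lower. The median log2 fold change of all genes was 0.11 in WT and 0.10 in HET. Of 10 markers of large-diameter neurons, in which the heavy subunit is abundant, 6 were called lower by limma from 12 to 48 h in WT and none higher, among them Ntrk3 (log2 fold change -1.58), the receptor of proprioceptors, and Pvalb (-1.16), a calcium-binding protein. Calb1 at 0.85 (adjusted p 0.0902 by limma) and Necab2 at 0.14 had positive values in WT. In HET 2 of 10 were called, both lower. Their median log2 fold change was -0.92 in WT and -0.36 in HET. Their summed level in WT ran from 172.4 to 218.9 FPKM at 12 h and from 106.6 to 151.8 FPKM at 48 h, and in HET from 125.3 to 181.8 and from 118.1 to 126.7 FPKM. Small-diameter markers were called lower too, 7 of 10 in WT and 5 of 10 in HET, with medians of -1.01 and -0.65. Of 10 pan-neuronal markers 4 were called higher and 3 lower in WT and 2 and 1 in HET. Of the other cell types in WT, 4 of 8 glial markers were lower and 1 higher, 3 of 5 fibroblast markers and 3 of 6 leukocyte markers were higher, with 1 leukocyte marker lower, and 3 of 4 endothelial markers were lower. The part of these cell types in the fall of the subunits was not tested.

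To show which genes had patterns most like each member, log2 values were centred on each gene's mean and compared over the 18 cultures among 12476 genes with a mean of at least 100 normalized counts. Nefm was nearest to Cplx1, which encodes a complexin of synaptic vesicle release, with a root mean square difference of 0.05, where Nefm itself varied by 0.33 around its mean. Nefh was nearest to S100b, a calcium-binding protein also in the glial marker list, at 0.06, and then to Vamp1, a vesicle fusion protein, and Ckmt1, a mitochondrial creatine kinase, at 0.08 and 0.09. For Nefl the nearest were Fkbp4, a co-chaperone (0.05), Tecr (0.06) and Bend6 (0.07). After Cplx1, Nefm was nearest to Atp1b1, a sodium pump subunit, and Atp6v1g2, a proton pump subunit (0.11 and 0.12). Ina was nearest to Sgip1, Aff3 and St8sia3 (0.10, 0.11 and 0.12), and Prph to Ddhd2, Sept6 and Luzp2 (0.08, 0.08 and 0.09). No member was among the 3 nearest of another. Nefm was place 49 in nearness to Nefh and Nefh place 33 to Nefm, at a difference of 0.18, whereas Prph was place 9881 for Nefh. These distances describe the 18 cultures, which share groups and normalization, and carry no test.

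Among other intermediate filament genes, more were called higher than lower in WT, as among all genes. Of 12 such genes, Krt18 was not among the genes tested. Of the other 11, 5 were called higher and 1 lower between 12 and 48 h in WT. Of all genes 30% were called higher and 17.1% lower, and in the plain columns 4 of the 11 were higher and 1 lower. The median log2 fold change of the 11 was 0.22, that of all genes 0.11 and that of the 5 neuronal genes -0.49. Krt19, an epithelial keratin, rose by 4.69 on the log2 scale (SE 0.59), Krt8, its usual partner class, by 1.60 (SE 0.54) and Lmnb2, a nuclear lamin, by 0.78 (SE 0.14). Synm, which encodes synemin, a linker protein of muscle and glial filaments, fell by 0.32 (SE 0.08). In HET 2 of 11 were called from 12 to 48 h, Krt19 at 2.81 (SE 0.59) and Lmnb2 at 0.49 (SE 0.14). That compares with 14.2% of all genes, and in the plain columns 1 of 11 was called. From 12 to 24 h in HET 3 of 11 rose, with Krt19 at 1.83, Lmnb1 at 0.41 and Lmna at 0.35, and Synm fell by 0.33. Of all genes 18.9% were called there, and in the plain columns 2 of the 11 rose and 1 fell. From 24 to 48 h in WT 3 of 11 rose, with Krt19 at 3.20, where 27.7% of all genes were called. In the plain columns 3 rose and 1 fell. Vim, the vimentin gene, was not called in either genotype (log2 fold change 0.08 in WT and 0.24 in HET from 12 to 48 h). Between genotypes 0 of 11 were called by limma at any time, with 0, 0 and 4 at an unadjusted p under 0.05 at 12, 24 and 48 h, where 8.41%, 1.15% and 22% of all genes were. At 48 h the replicate block called 1 of 11, Krt19, as lower (log2 fold change -1.78 and adjusted p 0.0986 by limma without the block, and adjusted p 0.00466 with it).

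Genes whose products phosphorylate, link, carry or degrade neurofilaments, or bind the Nefl message, were called in both directions. Of 24 such genes, all measured, 7 rose and 3 fell from 12 to 48 h in WT, shares near the 30% and 17.1% of all genes, with a median log2 fold change of -0.01. In the plain columns 6 rose and 6 fell. Hspb1, a small heat shock protein whose mutation causes axonal neuropathy, rose by 1.001 (SE 0.13, adjusted p 4.49e-05 by limma). Cdk5, a kinase of the neurofilament tails, rose by 0.93 (SE 0.15), and Stub1, a ubiquitin ligase, by 0.77 (SE 0.10). Mapk3, the ERK1 kinase, Kif5a, the kinesin heavy chain that carries neurofilaments, and Myo5a, a myosin motor, were the 3 that fell, with log2 fold changes of -0.48, -0.43 and -0.34. In HET 5 of 24 were called from 12 to 48 h, all higher, against 14.2% of all genes called in either direction. They were led by Cdk5 at 0.51, Stub1 at 0.45 and Hspb1 at 0.43, and in the plain columns 1 rose and 1 fell. From 12 to 24 h in HET 1 rose, Hspb1 at 0.79, and 4 fell, with Cdk5r1, the activator of Cdk5, at -0.78 (SE 0.17), Kif5a at -0.45 and Trim2, a ubiquitin ligase that targets the light subunit, at -0.40. Of all genes 18.9% were called there, 5.76% lower. Cdk5r1 at 0.74 and Trim2 at 0.37 were the 2 of 24 called from 24 to 48 h in HET, both higher, as Ina was in that interval. There 2.49% of all genes were called, 1.42% higher. From 24 to 48 h in WT 6 of 24 were called, near the 27.7% of all genes. All 6 were higher, led by Cdk5 at 0.81. Between genotypes 0 of 24 were called by limma at 12, 24 or 48 h, with 1, 0 and 6 at an unadjusted p under 0.05, where 8.41%, 1.15% and 22% of all genes were. At 48 h the replicate block called 2 of 24, both lower, against 10.4% of all genes.

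**Figure D4:**
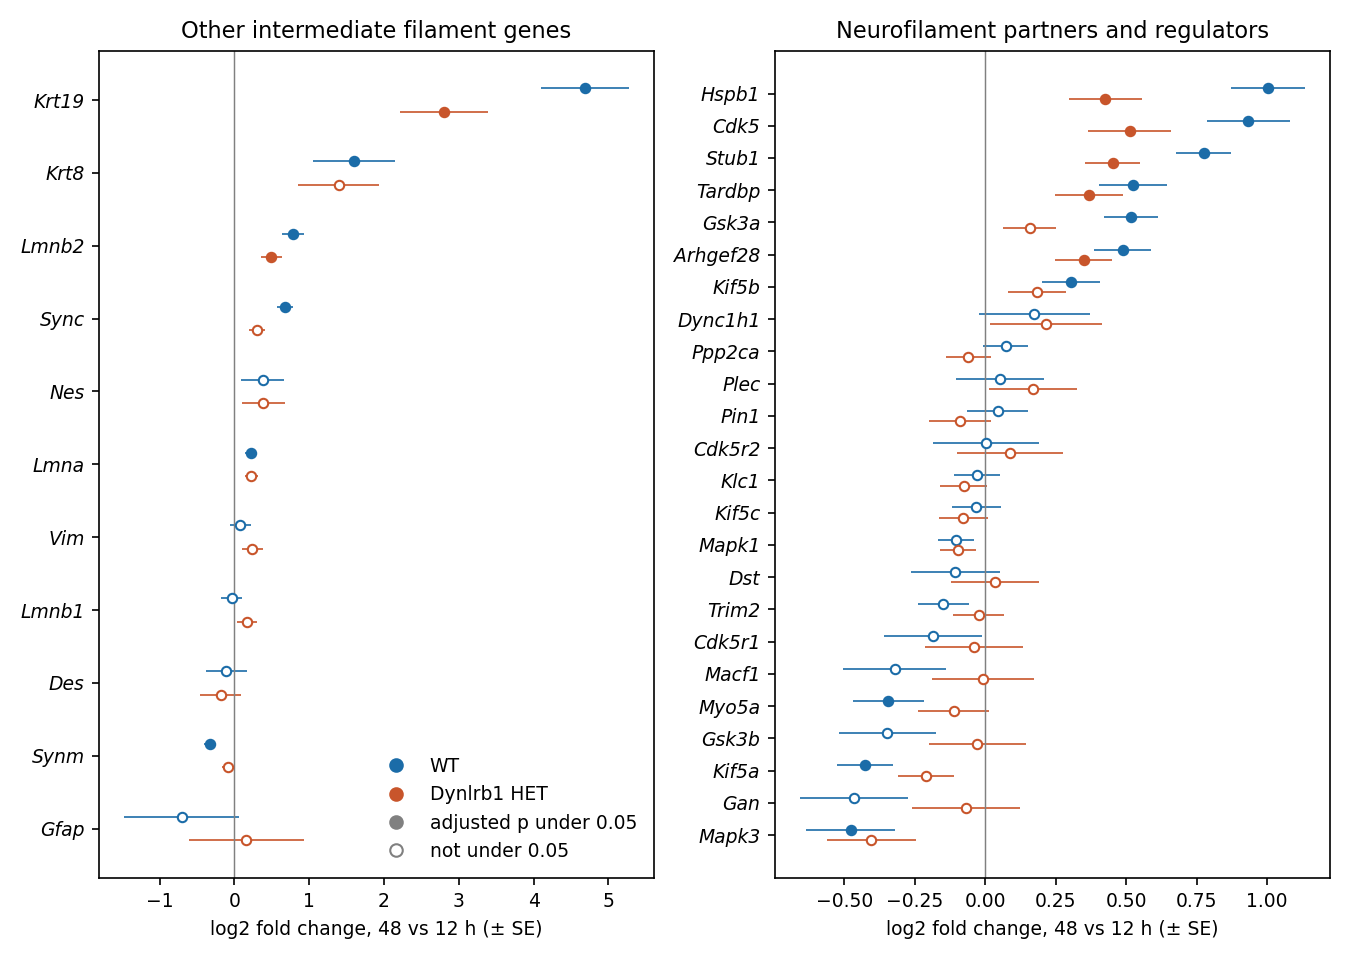
Log2 fold change from 12 to 48 h (points, with SE as bars) for 11 other intermediate filament genes and 24 partners and regulators of neurofilaments, by genotype; filled points have a limma adjusted p under 0.05. Krt19 lies highest among the filament genes in both genotypes, and Hspb1, Cdk5 and Stub1 lead the partners in WT.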

How the data were processed

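The values came from 1 deposited table of 17198 genes over 18 cultures. Per the submitters' processing notes, CASAVA 1.8.2 and edgeR were used with the mm10 build; the aligner, counter, annotation and strand setting are not given in the sources used here. Per the file headers, the authors deposited normalized counts, a signal with column totals of 41509705 to 41509874, no whole numbers and no 0, and FPKM values proportional to them by 1 constant per gene. Plain signal columns, deposited by the authors without a label, had totals of 39465712 to 44213485. Their logarithms spanned 15 of 17 possible dimensions, so 2 directions among cultures had been removed by a step not given in the sources used here. The spread between cultures may be understated for that reason, and p-values of the main fit make no allowance for it. The authors' deposited log2 fold changes and FDR, a kind of adjusted p-value, were read for comparison.

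As the values were not counts, limma 3.58.1 (R 4.3.3) was fitted to log2(normalized count + 1) with 1 coefficient per group over all 18 cultures and eBayes with a trend (12 residual degrees of freedom, 4.97 prior). A minimum mean of 1 removed 0 genes. Benjamini-Hochberg adjustment of p-values was made over 17198 genes within each of 11 comparisons, with a threshold of 0.05. On this scale the change of a low gene is understated. The fit was tested on simulated data. Cultures were grouped by their titles. Alternatives were the replicate number as a block, a pseudocount of 0.1, a minimum mean of 10, the plain columns, the 2 removed directions as covariates, each culture left out, and transcript length.

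Deviations from group means of same-numbered WT and HET cultures correlated at 0.321, 0.209 and 0.461 at 48 h, so the numbers in the titles were taken to pair cultures there. They correlated at 0.188, 0.032 and 0.158 at 12 h and at 0.109, -0.207 and 0.258 at 24 h. Annotation was GENCODE M21; promoters were from RefSeq (GRCm38.p6) and matched 2 of 5 genes by symbol.

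The 5 genes and all lists (other intermediate filament genes, partners and regulators, and markers of pan-neuronal, large-diameter, small-diameter, glial, fibroblast, leukocyte and endothelial type) were chosen with earlier results of these data known. Named were the 5 genes, Dynlrb1, the 3 genes nearest each member, and up to 3 called genes of largest change per list and comparison. Other genes named from the lists were chosen after their values were seen.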

Additional observations from a re-analysis of the deposited data

How the results depend on the processing

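With the replicate block, the calls among the 5 genes rose from 0 to 2 for 48 against 24 h in WT (Nefm and Nefh), from 1 to 3 for 48 against 12 h in HET (Nefl, Nefm and Nefh) and from 1 to 2 for 48 against 24 h in HET (Ina and Prph); no other count of called members moved by over 1.5 times, and in the permutation test for Prph the p was 0.043 with pairs kept. Between genotypes, every culture correlated best with its own number at 48 h but not at 12 or 24 h, where the numbers may be no more than labels. Between times of the same genotype, same-numbered cultures correlated at -0.197 to 0.357. Number 3 occurs only at 48 h and number 5 only at 12 and 24 h. The block calls between times, here and below, thus lean on a pairing not seen between times. Those between genotypes at 48 h come from the same fit, which shares each number over all times. The block also shifted the log2 fold changes, as for Nefm from 12 to 48 h in WT (-0.61 to -0.74). The plain columns gave 2 calls for 48 against 12 h in HET, and the removed directions gave 1 for 24 against 12 h in WT (Ina) and 2 for 48 against 24 h in HET. For 24 against 12 h in HET, calls went from 2 to 3 with the block and also with the plain columns, as Nefl was added. Leaving out 1 culture gave 1 to 3 calls for 48 against 12 h in WT, 0 to 3 for 24 against 12 h in HET and 0 to 2 for each of the other HET time comparisons. A pseudocount of 0.1 or a minimum mean of 10 changed no count of called members; no filter was the same fit, as the filter removed 0 genes.

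Some uncalled log2 fold changes changed sign. With the plain columns, Prph for 48 against 12 h was -0.076 in WT and -0.072 in HET and its genotype difference was 0.0045; with the removed directions, Nefl at 24 h between genotypes was 0.012. With 1 culture left out, HET against WT ran at 12 h from -0.026 to 0.25 for Nefl, -0.41 to 0.018 for Nefm and -0.40 to 0.045 for Nefh; at 24 h from -0.093 to 0.088 for Nefl, -0.24 to 0.011 for Nefm, -0.23 to 0.035 for Nefh and -0.097 to 0.12 for Prph; and at 48 h from -0.063 to 0.26 for Nefm and -0.056 to 0.15 for Nefh. The averaged values, and those of the permutation test, ran from -0.15 to 0.0031 for Nefm, -0.14 to 0.0033 for Nefh and -0.11 to 0.0046 for Ina. The change from 12 to 48 h of Prph ran from -0.098 to 0.096 in WT and -0.080 to 0.13 in HET, and its genotype difference from -0.11 to 0.12; that of Nefl ran from -0.025 to 0.25. From 24 to 48 h in HET, Nefl ran from -0.11 to 0.070 and Nefm from -0.22 to 0.014.

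Counts over all genes moved by over 1.5 times as follows. With the block, calls went from 1 to 0 at 24 h and 0 to 1790 at 48 h between genotypes, 3 to 205 averaged, 622 to 1218 for 24 against 12 h in WT, 2442 to 5099 for 48 against 12 h in HET and 429 to 2084 for 48 against 24 h in HET. At 48 h between genotypes a minimum mean of 10 gave 152, and 931 was the highest with 1 culture left out. With the removed directions 622 became 1132 and 429 became 841. With 1 culture left out, the count ran from 0 to 4886 for 48 against 12 h and 0 to 2560 for 48 against 24 h in HET, from 1141 to 2915 for 24 against 12 h in HET, and in WT from 0 to 197 for 24 against 12 h and 2236 to 4485 for 48 against 24 h. Other shifts past 1.5 times were within counts of 0 to 2. The causes were not tested. Depth is unknown, so what it limits cannot be stated; precision is that of 3 cultures a group.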

Other observations

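Cultures numbered 5, present at 12 and 24 h in both genotypes, were low in Nefm. In 4 of the 4 groups that hold one, it had the lowest Nefm value of its group, from 43690 to 51987 normalized counts. It was also lowest in 3 of 4 groups for Nefh, 2 of 4 for Nefl, 1 of 4 for Ina and 0 of 4 for Prph. The summed FPKM of 10 large-diameter neuron markers was lowest in the same cultures in 4 of 4 groups, at 172.4 in WT and 125.3 in HET at 12 h and 131.8 and 104.2 at 24 h. That of 10 small-diameter markers was lowest there in 0 of 4. Number 5 has no counterpart at 48 h, where the numbers were 1, 2 and 3. This pattern was noticed after the values had been seen and was not tested.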
